A study of Mus musculus with 13 samples.

Results

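The 13 microglial RNA libraries of a repeated social defeat study were compared here by the number in their titles. The 7 libraries numbered 10 to 19 (RSD 10, 11, 12 and 13 and CON 17, 18 and 19) were set against the 6 numbered 1 to 8 (CON 1, 4 and 5 and RSD 2, 7 and 8). All 13 of 13 samples entered, with the stress group as a term, so the comparison is not that of stressed with control animals. No source used here says what the number stands for, such as an order of handling, a day or a cage. The ranges were chosen by measured values: the dividing line was drawn after heat shock, AP-1 and neutrophil transcripts had been seen to stand apart by number, among them Hspa1a, Dnajb1, Jun and S100a8. The size of the difference between the ranges is therefore a description. The adjusted p behind each count below sorts genes and tests nothing independent of that choice.

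RSD samples came from C57BL/6 mice of 2 months that went through 6 cycles of repeated social defeat, a paradigm in which an intruder attacks group-housed mice. CON samples came from the control mice of the same strain and age. Extraction followed 24 days after the final cycle. Cells were enriched on Percoll and sorted as CD11b+ with intermediate CD45, and libraries were made from total RNA after removal of ribosomal RNA. No genotype or transgene separates the groups, and the labels do not say whether each sample is 1 mouse, so p-values measure the spread between these samples, which may in part be technical.

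Microglia are the resident macrophages of the brain. When cells meet heat, oxidation or other proteotoxic stress, heat shock factor HSF1 binds heat shock elements and drives transcription of the chaperones, which hold and refold unfolded proteins. Immediate early genes such as Fos, Jun and Atf3 respond to many stimuli without new protein synthesis, and both programs are known to be induced in microglia and other brain cells by tissue dissociation. Neutrophils carry abundant transcripts for the granule and calcium-binding proteins that microglia largely lack, so these transcripts mark blood-derived cells in a sort.

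The depth was 9.76 to 12.3 M recovered reads per library, in the same span in both ranges. Values below are normalized reads, meaning reads divided by the size factor the authors used for each library, and log2 differences are on the log2(value + 1) scale, numbers 10 to 19 minus 1 to 8, with a standard error (SE) from limma. Of 14518 genes in the table, 12496 passed the filter on low counts. The microglial label held: the summed level of 24 homeostatic microglial genes was 438332 to 466412 in the low range and 446310 to 467500 in the high range apart from CON 18, at 298558. CON 18 and RSD 8 stood apart. Their median Spearman correlation with the other libraries was 0.920 and 0.952, against 0.985 to 0.990 for the other 11. Values without both are therefore given for the counts, for the leading genes and for some lists. A list given without such values may also have moved.

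A total of 66 genes were higher in numbers 10 to 19 and 20 were lower at an adjusted p under 0.05, which is 0.528% and 0.16% of the genes tested (0.688% together). Of these, 33 were higher and 10 lower by more than 2-fold. The median difference over all genes tested was -0.01 on the log2 scale, with a median SE of 0.13. Without CON 18 and RSD 8, 139 genes were higher and 107 lower (1.11% and 0.854% of 12535). Of the 86 genes, 79 were also past the threshold then (91.9% of the 86, and 32.1% of the larger set of 246), and 86 of 86 kept their sign. The 7 that no longer passed were Hspa1a, Hspa1b, Hspa1l, Ddit3, Odc1, Snora17 and Tnfaip3. The ranges did not overlap for 42 of the 66 higher and 15 of the 20 lower genes. Over all genes tested, the ranges did not overlap for 78 genes that were higher (0.624%) and 81 that were lower (0.648%).

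The difference pointed the same way in RSD samples alone and in CON samples alone for 86 of 86 genes. Sign agreement is favoured by the fit that selected them and supports nothing further. Leaving out single libraries moved the counts from 24 to 108 genes higher and from 8 to 64 lower, with the lowest counts without CON 19 or RSD 7 and the highest without CON 18.

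**Figure D1:**
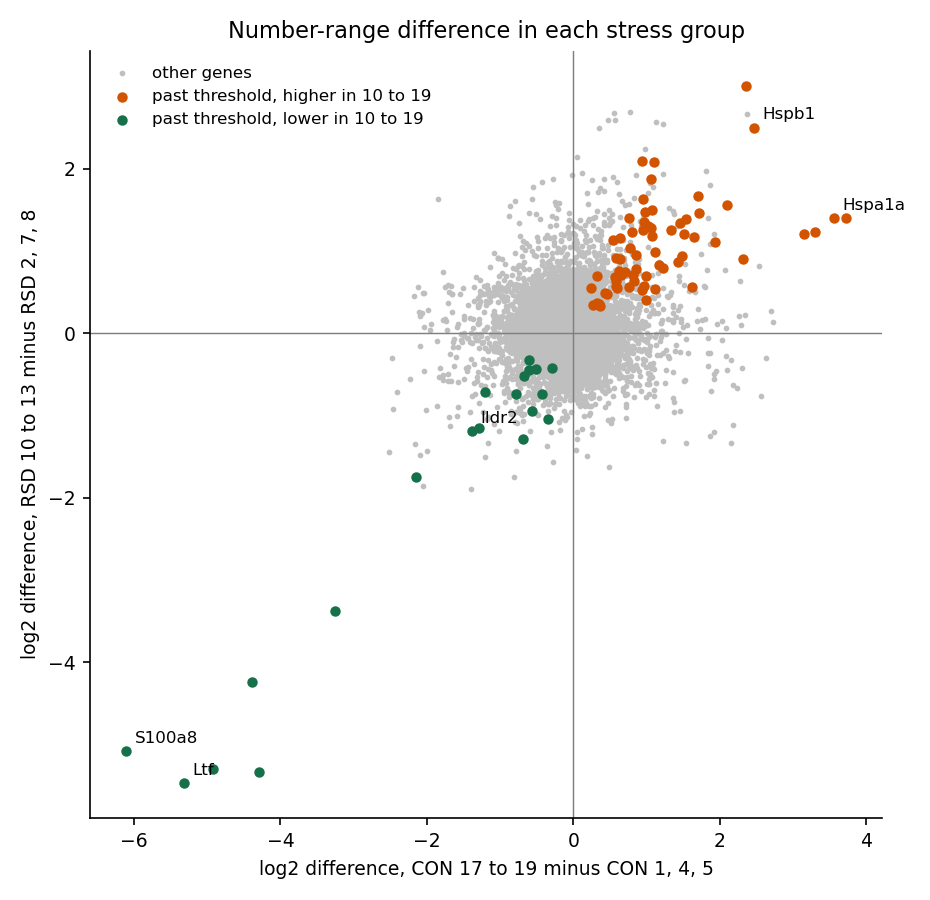
Log2 difference between numbers 10 to 19 and 1 to 8 for each gene tested, in the 6 CON samples (x axis) and in the 7 RSD samples (y axis); coloured points are the 66 genes higher and the 20 lower past the threshold. The coloured points lie in the upper right and lower left quadrants, with S100a8 at -6.10 and -5.08, while Hspa1a sits at 3.57 in CON and 1.40 in RSD.

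Inducible HSP70 genes had some of the largest differences. Hspa1a (ENSMUSG00000091971.3, chr17:34969190-34972156, minus strand, GRCm38), the stress-inducible chaperone of that family, had 5378, 1506 and 1774 normalized reads in CON 1, 4 and 5 and 12133, 12233 and 14885 in RSD 2, 7 and 8. In the high range it had 29942, 34383, 30159 and 44501 in RSD 10 to 13 and 31922, 21172 and 35426 in CON 17, 18 and 19. Every high-range library was above every low-range library, and within the low range the 3 CON samples were below the 3 RSD samples. The log2 difference was 2.41 ± 0.42 (SE, n = 7 and 6), and the means were 32501 ± 7033 and 7985 ± 5835 (SD). At the dividing line, RSD 8 had 14885 and RSD 10 had 29942. Without CON 18 and RSD 8 the difference was 2.58 ± 0.52, with an adjusted p of 0.0501 that no longer passed the threshold in limma.

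Hspa1b, a near-identical copy of Hspa1a, differed by 2.49 ± 0.46, and reads of the pair cannot be assigned to either with certainty. Hspa1l, in the same cluster, differed by 2.19 ± 0.39. Hspa1a and Hspa1l each overlap a gene annotated on the opposite strand, and whether reads were counted by strand is not stated. Both Hspa1b and Hspa1l were past the threshold with all libraries, and without CON 18 and RSD 8 their adjusted p in limma was 0.059 and 0.065.

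Hspb1 and Hspa1a, with Jun, are shown by the 250 bases before their start because each holds the core of a heat shock element. The sequences are from RefSeq (GRCm38.p6), read 5′ to 3′ on the strand of the gene, with the match to GAANNTTC in capitals. The window of Hspa1a is chr17:34972157-34972406 (minus strand), that of Hspb1 is chr5:135887669-135887918 (plus strand) and that of Jun is chr4:95052223-95052472 (minus strand).
Hspa1a: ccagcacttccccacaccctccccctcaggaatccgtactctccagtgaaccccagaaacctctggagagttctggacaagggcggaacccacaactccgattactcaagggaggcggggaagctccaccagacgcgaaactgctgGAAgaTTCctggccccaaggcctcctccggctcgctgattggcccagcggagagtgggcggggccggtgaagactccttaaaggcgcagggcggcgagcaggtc
Hspb1: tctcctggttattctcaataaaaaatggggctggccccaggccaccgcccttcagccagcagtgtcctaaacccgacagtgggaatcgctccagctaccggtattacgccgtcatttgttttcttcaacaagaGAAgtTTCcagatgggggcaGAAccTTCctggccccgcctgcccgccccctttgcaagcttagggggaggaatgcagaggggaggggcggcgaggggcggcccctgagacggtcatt
Jun: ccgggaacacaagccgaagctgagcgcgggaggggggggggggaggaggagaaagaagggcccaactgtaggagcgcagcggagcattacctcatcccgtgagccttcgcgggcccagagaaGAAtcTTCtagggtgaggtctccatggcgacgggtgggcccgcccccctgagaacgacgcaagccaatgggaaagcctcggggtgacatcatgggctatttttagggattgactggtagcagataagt

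The match began 104 bases before the start in Hspa1a and in Hspb1 at 117 and 97 bases. In Jun it began 128 bases before the start. The letters GAANNTTC read the same on both strands as a pattern and occurred in the 250 bases before 7.73% of 27025 genes with a RefSeq window and before 6.31% of the 9277 of them that were tested here. Among genes past the threshold with a window, 8 of 45 that were higher (17.8%) and 0 of 16 that were lower held it. On the 4 lists of chaperones and co-chaperones, 4 of the 7 genes past the threshold with a window held it, and 8 of 63 others (12.7%). Those lists also hold Hsf1, Hsf2 and mitochondrial proteases. The cAMP response element TGACGTCA was before 3.09% of the tested genes and before 4 of the 45 that were higher, namely Dusp1, Pard6a, Plk2 and Ppp1r15a. A match of letters is a description, not a measured binding site.

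Among the other large chaperones, Hsph1, an HSP110 nucleotide exchange factor of HSP70, had 209 to 2542 normalized reads in the low range (median 669) and 1672 to 4694 in the high range (median 3136). Its ranges overlapped through RSD 8 and CON 18, and the log2 difference was 2.11 ± 0.41 (2.50 ± 0.41 without those libraries). Hsp90ab1, the constitutive cytosolic HSP90, differed by 0.67 ± 0.14, and it was the other member past the threshold. The list of 15 HSP70, HSP90 and HSP110 chaperones also holds the heat shock factor genes Hsf1 and Hsf2. Of its members, 4 were higher past the threshold, 0 were lower, and the median was 0.45 against -0.01 over all genes. Hsp90aa1, the inducible HSP90, differed by 1.01 ± 0.24 and Hspa8, the constitutive HSC70, by 0.54 ± 0.14 without passing. The list median was 0.16 without CON 18 and RSD 8, where 4 members passed, a set that differed from the first. Hsph1 and Hsp90ab1 (0.87 ± 0.14) were in both, Hspa1a and Hspa1b no longer passed, and Hsp90aa1 (1.27 ± 0.24) and Hspa2 (0.71 ± 0.18) did.

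Hspb1 (HSP27), a small heat shock protein that holds unfolded clients, had 42.7 to 103 normalized reads in the low range (median 63.9) and 98.0 to 609 in the high range (median 418). In the high range CON 18 had 98.0 and the other 6 had 393 or more, so CON 18 alone made the ranges overlap. The log2 difference was 2.49 ± 0.31, and it was 2.50 ± 0.18 in RSD samples and 2.47 ± 0.61 in CON samples. Hspb1 differed by 2.74 ± 0.19 without CON 18 and RSD 8. Bag3, which couples HSP70 to autophagy, differed by 0.92 ± 0.18, with 245 to 352 in the low range and 305 to 969 in the high range, and by 1.11 ± 0.17 without those libraries. These were the 2 members past the threshold of 19 tested small heat shock proteins and co-chaperones, whose median was 0.10 (0.11 without CON 18 and RSD 8).

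Dnajb1, the HSP40 that stimulates the ATPase of HSP70, had 2912, 2316 and 2100 normalized reads in CON 1, 4 and 5 and 4522, 3815 and 4682 in RSD 2, 7 and 8. It had 5450, 6758, 5612 and 7502 in RSD 10 to 13 and 6047, 3822 and 6275 in CON 17 to 19. CON 18 was inside the low range and the other 6 high-range libraries were above it. The log2 difference was 0.81 ± 0.15, and 0.95 ± 0.18 without CON 18 and RSD 8. At the dividing line RSD 8 had 4682 and RSD 10 had 5450. Dnajb1 was the 1 gene past the threshold of 40 DNAJ co-chaperones, whose median was -0.02, or 0.06 without CON 18 and RSD 8.

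Among chaperones of the organelles, Hspe1, the mitochondrial HSP10 that caps HSP60, differed by 0.76 ± 0.14 and was the 1 member past the threshold of 12 mitochondrial chaperones and proteases (median 0.04). It shares 112 bases with Hspd1, which encodes HSP60 on the opposite strand and differed by 0.47 ± 0.15. Of 23 genes of the endoplasmic reticulum unfolded protein response, 2 were higher past the threshold (median 0.06): Ppp1r15a, which directs dephosphorylation of eIF2α, at 0.75 ± 0.12, and Ddit3 (CHOP) at 0.66 ± 0.13. The main chaperone of that compartment, Hspa5 (BiP), differed by 0.36 ± 0.13 and did not pass. Hmox1, which breaks down heme, had 123 to 201 normalized reads in the low range (median 167) and 330 to 652 in the high range (median 408). No high-range library was below a low-range library, and the log2 difference was 1.39 ± 0.14 (1.32 ± 0.14 without CON 18 and RSD 8). Hmox1 and Sqstm1 (0.46 ± 0.10) were the 2 higher of 15 oxidative stress genes, whose median of 0.08 was -0.003 without CON 18 and RSD 8.

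**Figure D2:**
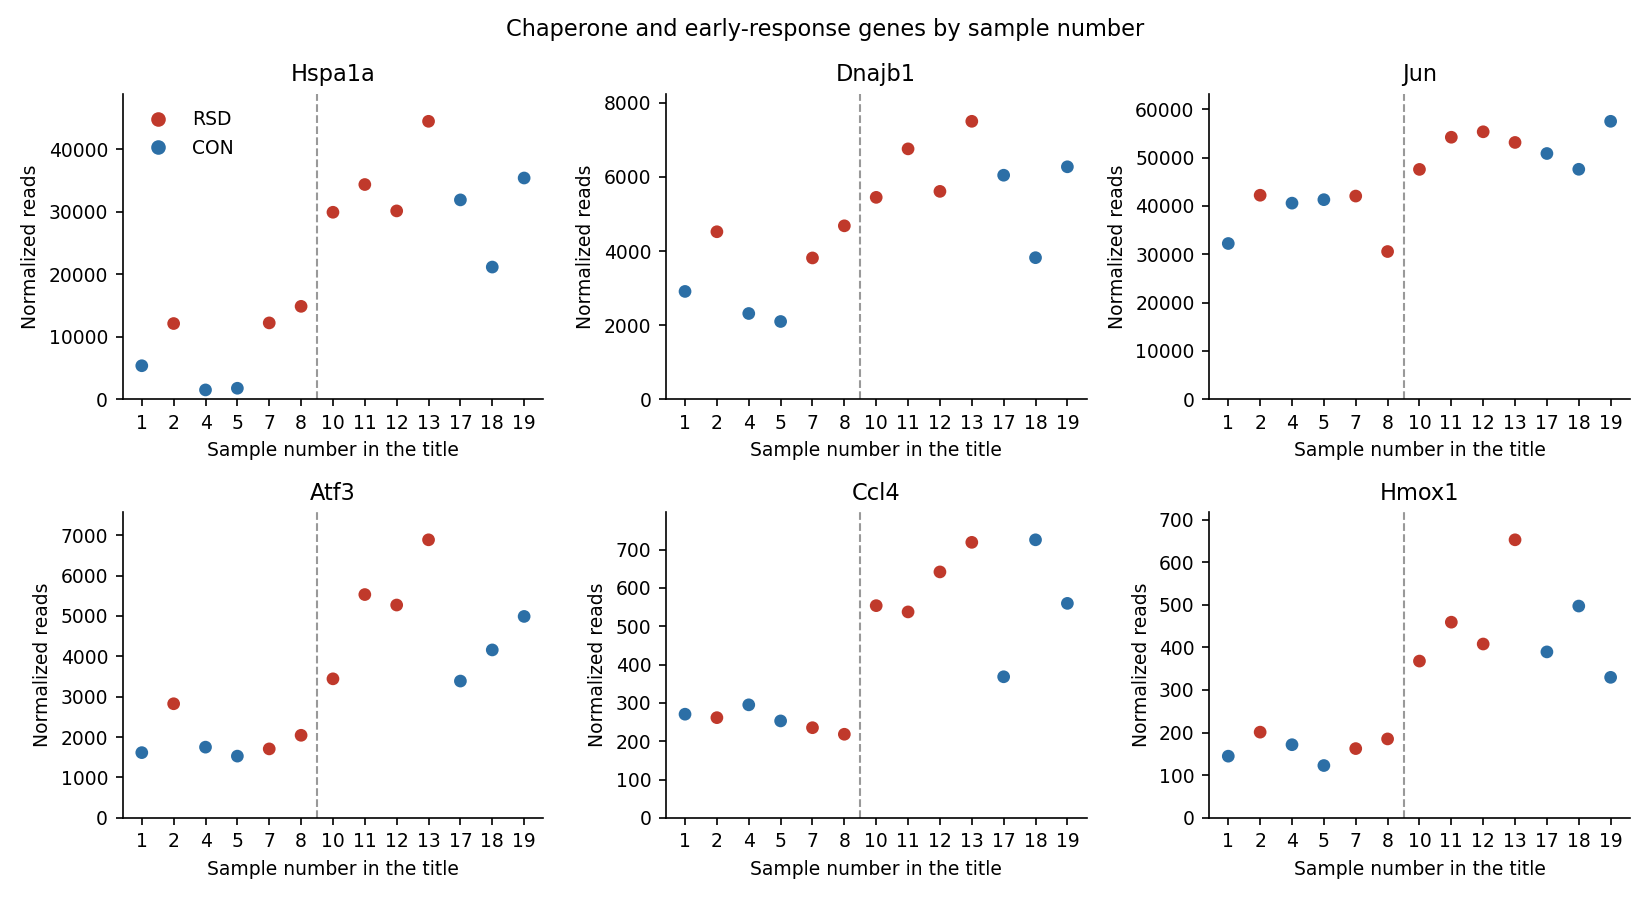
Normalized reads of 6 genes in each library, in order of the sample number (x axis), RSD in red and CON in blue; the dashed line divides 1 to 8 from 10 to 19, and every vertical axis starts at 0. For Hspa1a, Jun, Atf3, Ccl4 and Hmox1 every point to the right of the line is above every point to the left, while for Dnajb1 CON 18 (3822) lies among the low-range points.

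Among AP-1 transcription factors, which bind as dimers of Fos, Jun and Atf proteins, 4 of 15 were higher past the threshold and 0 lower, with a median of 0.35. Jun had 32226, 40572 and 41289 normalized reads in CON 1, 4 and 5 and 42206, 42036 and 30565 in RSD 2, 7 and 8. In RSD 10 to 13 it had 47548, 54200, 55328 and 53124, and in CON 17 to 19 it had 50837, 47574 and 57496. The ranges did not overlap, and the log2 difference was 0.46 ± 0.09, with 0.47 ± 0.12 in RSD samples, 0.46 ± 0.13 in CON samples and 0.41 ± 0.07 without CON 18 and RSD 8. At the dividing line RSD 8 had 30565 and RSD 10 had 47548. Jun shares 689 bases with the antisense gene Junos.

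Atf3, a stress-induced member of the group, had 1528 to 2825 normalized reads in the low range (median 1729) and 3387 to 6885 in the high range (median 4988). All high-range libraries were above all low-range ones, and the log2 difference was 1.30 ± 0.15 (1.28 ± 0.22 without CON 18 and RSD 8). Fos (0.65 ± 0.09) and Mafk, a small Maf protein (0.68 ± 0.13), were the other 2 past the threshold. Fosb differed by 0.76 ± 0.16 and Junb by 0.22 ± 0.16, and neither passed. Of the list, 6 members were past the threshold without CON 18 and RSD 8.

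Of 26 tested immediate early genes, 24 had a positive difference, 4 were higher past the threshold and the median was 0.40. Klf6, a Krüppel-like transcription factor, had 4238 to 7454 normalized reads in the low range and 9219 to 12976 in the high range (0.99 ± 0.12, and 1.04 ± 0.14 without CON 18 and RSD 8). Klf2 differed by 0.91 ± 0.15. Nr4a1, an orphan nuclear receptor, had 30.6 to 38.3 in the low range and 56.7 to 148 in the high range (1.30 ± 0.19). Dusp1, a phosphatase that switches off MAP kinases, had 7316 to 10086 against 11654 to 14230 (0.61 ± 0.08). The ranges of Klf6, Nr4a1 and Dusp1 did not overlap. Egr1 (0.46 ± 0.13) and Ier2 (0.45 ± 0.14) did not pass. The list had 9 members past the threshold without CON 18 and RSD 8.

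Of 31 tested genes of the NF-κB response and cytokines, 5 were higher past the threshold, 0 lower, and the median was 0.35 (0.19 without CON 18 and RSD 8). Ccl4, a chemokine of activated microglia, had 218 to 295 normalized reads in the low range (median 257) and 368 to 726 in the high range (median 560). CON 17, the lowest of the high range, was above CON 4, the highest of the low range, and the log2 difference was 1.17 ± 0.14 (1.03 ± 0.14 without CON 18 and RSD 8). Ptgs2, the inducible cyclooxygenase, was low throughout, at 4.49 to 13.7 against 19.2 to 56.3 (1.81 ± 0.29). It was above the filter's minimum count of 10 in every high-range library, but not in every low-range one. Its place in the count therefore follows in part from the filter. The inhibitors Tnfaip3 (0.57 ± 0.12) and Nfkbie (0.31 ± 0.06) and the precursor subunit gene Nfkb2 (0.58 ± 0.12) also passed. Tnf at 0.35 ± 0.29 and Il1b at 0.21 ± 0.22 differed by amounts close to their errors. The summed level of the list was 44504 in CON 18 and 21372 to 27959 in the other high-range libraries, against 19453 to 21681 in the low range.

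Further genes past the threshold lay outside those programs. Pmaip1 (Noxa), a pro-apoptotic BCL2 family member, differed by 1.49 ± 0.27 and Plk2, a polo-like kinase, by 1.35 ± 0.22, the 2 higher of 12 p53 targets (median 0.12). Sik1, a salt-inducible kinase, differed by 1.56 ± 0.32 and Ccrl2, an atypical chemokine receptor, by 1.39 ± 0.28. On the list of 16 glucocorticoid-induced genes, Dusp1 and Mt1, a metallothionein (0.90 ± 0.19), were past the threshold, and the median was 0.19. The median was 0.41 in RSD samples alone and -0.05 in CON samples alone. Without CON 18 and RSD 8 it was 0.29, with 3 members past the threshold. Dusp1 also belongs to the immediate early list. Tsc22d3 (GILZ), a glucocorticoid receptor target, differed by 0.31 ± 0.17 and did not pass. Nfil3 (0.78 ± 0.14) was the 1 of 18 clock genes past the threshold, with a list median of 0.02 and Per1 at 0.73 ± 0.16.

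The genes past the threshold included 47 that are on the 40 gene lists and 39 on no list. Among the latter, Id2, an inhibitor of helix-loop-helix factors (1.13 ± 0.16), Rgs1, a regulator of G protein signalling (1.06 ± 0.21), Odc1, ornithine decarboxylase (0.83 ± 0.13), and Cebpb (0.40 ± 0.08) were higher. The lysosomal enzyme gene Gla (1.19 ± 0.25) and the replication clamp Pcna (0.72 ± 0.13) were the 1 member each past the threshold of 26 lysosomal and 20 cell cycle genes.

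**Figure D3:**
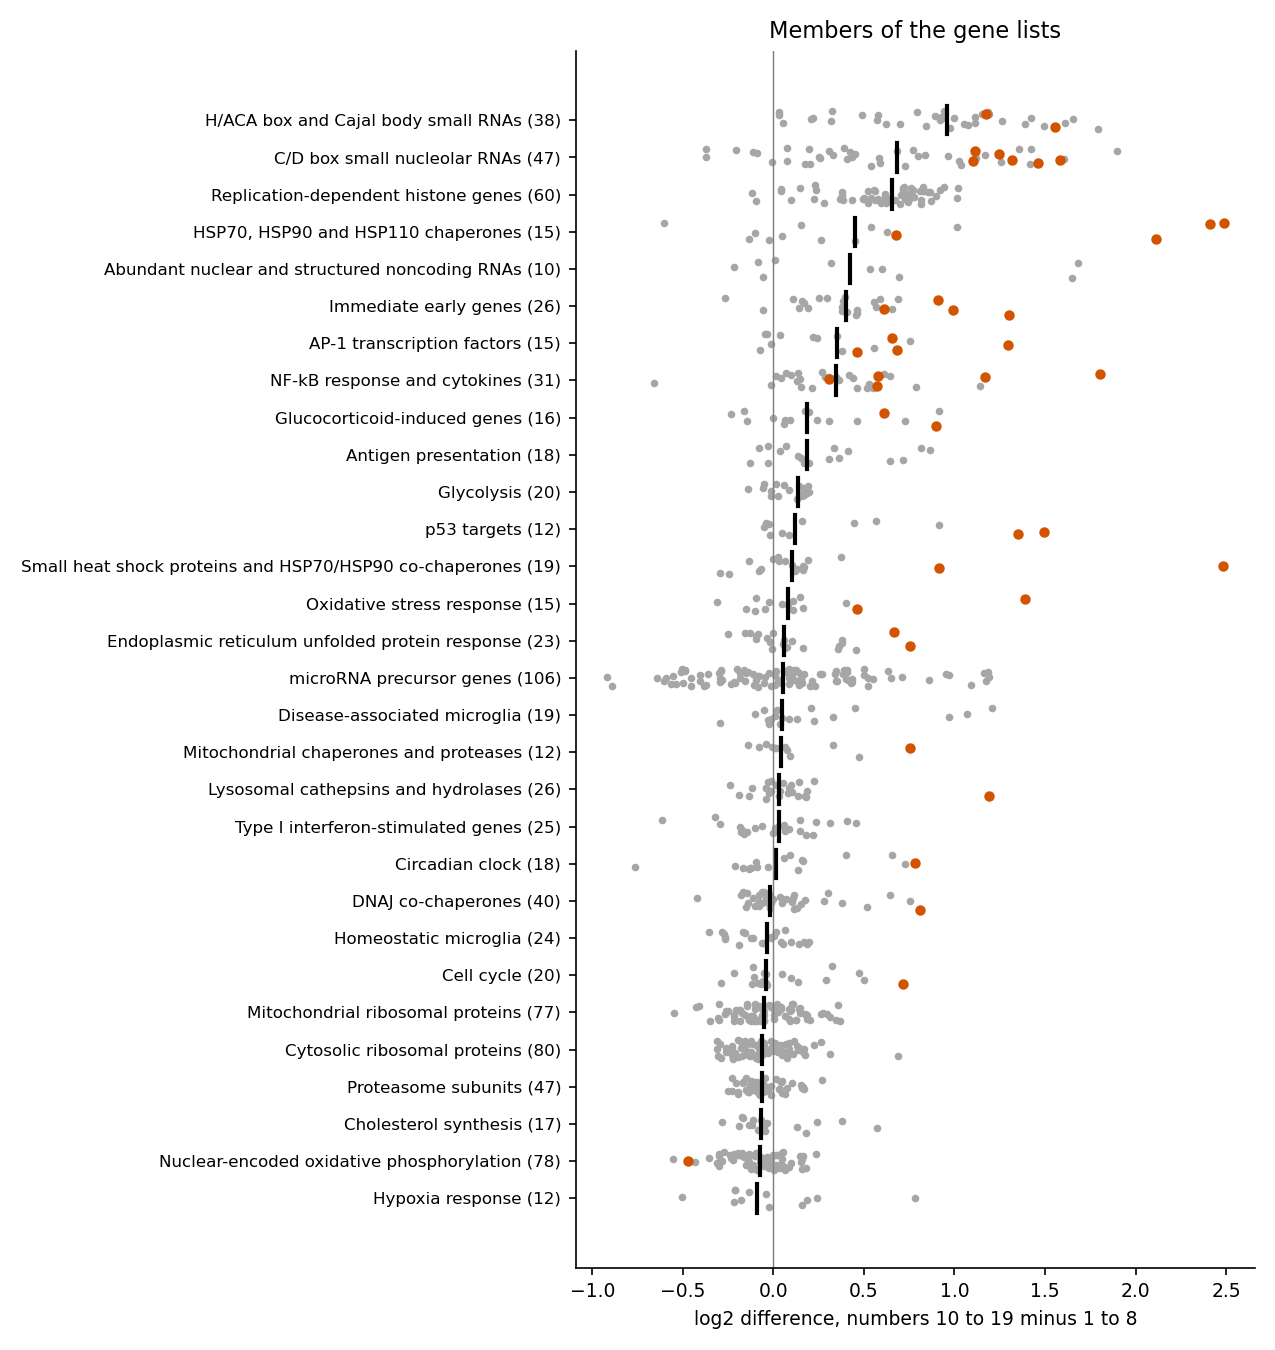
Log2 difference between numbers 10 to 19 and 1 to 8 for the tested members of each gene list (number tested in brackets); orange points passed the threshold and black bars are list medians. The small nucleolar RNA lists, with medians of 0.96 and 0.68, and the histone list, at 0.66, lie furthest to the right.

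Some small nucleolar RNAs were past the threshold, and most differences on these lists were positive. These RNAs guide modification of ribosomal and spliceosomal RNA and are cut from introns of host genes, with C/D box members guiding 2′-O-methylation and H/ACA box members guiding pseudouridylation. Of 47 tested C/D box RNAs, 6 were higher past the threshold and 41 had a positive difference, with a median of 0.68. Of 38 H/ACA and Cajal body RNAs, 2 passed (Snora17 and Snora20) and all 38 were positive, with a median of 0.96. Without CON 18 and RSD 8 the medians were 0.69 and 0.84. Snora17, at 1.17 ± 0.24, then no longer passed, with an adjusted p of 0.082 in limma.

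The 3 C/D box RNAs below are shown because their host genes did not follow them. Sequences are from GRCm38, 5′ to 3′, with the C box TGATGA and the D box CTGA in capitals, for Snord32a at chr7:45127382-45127464, Snord61 at chrX:57391449-57391519 and Snord87 at chr1:9942463-9942549, all on the minus strand.
Snord32a: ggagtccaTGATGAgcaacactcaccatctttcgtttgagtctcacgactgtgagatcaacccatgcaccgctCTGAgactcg
Snord61: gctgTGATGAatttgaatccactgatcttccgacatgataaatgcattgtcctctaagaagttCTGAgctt
Snord87: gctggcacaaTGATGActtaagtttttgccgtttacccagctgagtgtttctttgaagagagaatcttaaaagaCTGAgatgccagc

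Snord32a had 76.8 to 184 normalized reads in the low range (median 107) and 144 to 460 in the high range (median 316), a log2 difference of 1.24 ± 0.20. Its host, the ribosomal protein gene Rpl13a, differed by 0.09 ± 0.08. Snord61 had 11.7 to 31.4 against 28.2 to 75.8 (1.46 ± 0.26), and its host Rbmx, an RNA-binding protein gene, was at -0.16 ± 0.07. Snord87 had 7.47 to 43.0 against 45.1 to 90.0 (1.58 ± 0.30), and its host Snhg6 was at -0.42 ± 0.15. The ranges of Snord87 did not overlap, whereas those of Snord32a and Snord61 did.

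Over the 70 small RNAs with a tested host, the median was 0.87, 65 were positive and 66 were above their host. The 55 host genes had a median of -0.003, 26 were positive, 0 passed the threshold in limma, and they spanned -0.42 to 0.25. In RSD samples alone the list medians were 0.88 for C/D box and 1.36 for H/ACA RNAs, and in CON samples alone they were 0.46 and 0.49. Small RNA totals varied widely inside the low range, from 5262 to 36349 normalized reads for C/D box RNAs, with RSD 2 at the top. At 14738 to 38026, the high range overlapped it.

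**Figure D4:**
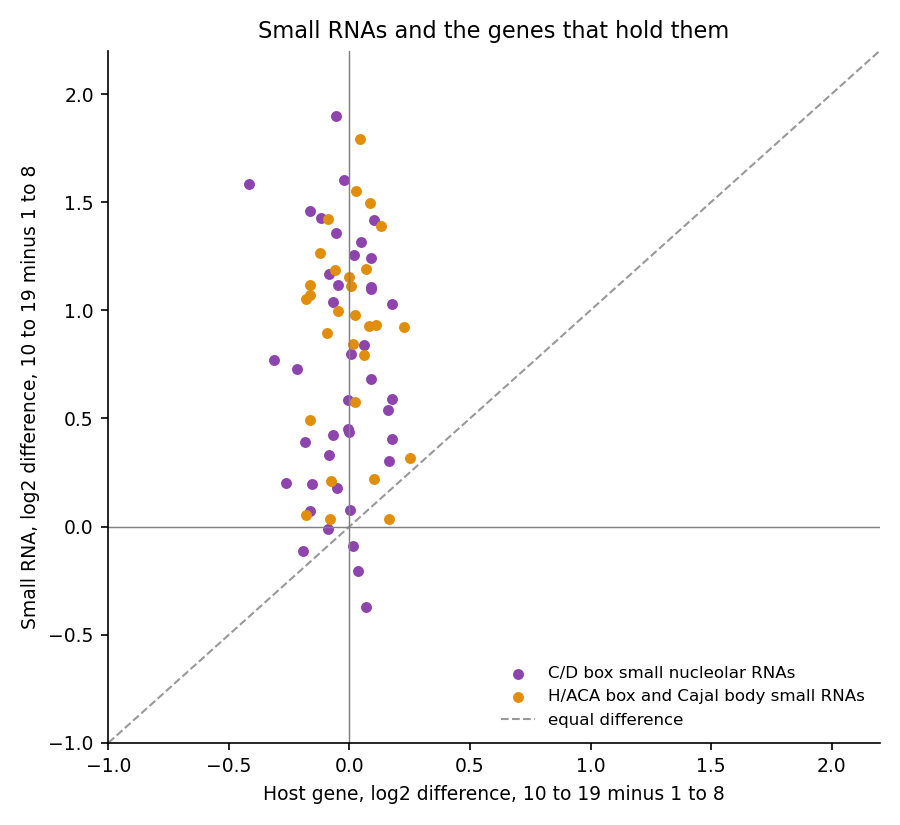
Log2 difference between numbers 10 to 19 and 1 to 8 of 70 small nucleolar and Cajal body RNAs (y axis) against that of the gene holding each (x axis); the dashed line marks equal differences. Host genes stay between -0.42 and 0.25 while 66 of the 70 small RNAs lie above the line.

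Replication-dependent histone genes had a median of 0.66 with 58 of 60 positive and 0 past the threshold in limma. The median was 1.13 in RSD samples alone and 0.08 in CON samples alone, and 0.31 without CON 18 and RSD 8. The summed histone level was 11001 in RSD 8 and 17423 in RSD 7, and 25896 to 36884 in the other 11 libraries. Abundant nuclear and structured noncoding RNAs (10 tested) had a median of 0.42, with 0.84 in RSD and -0.03 in CON samples, and 0.26 without CON 18 and RSD 8. For 106 microRNA precursor genes the median was 0.05, with 0 past the threshold. Without CON 18 and RSD 8, 3 of 104 tested were higher past it.

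Transcripts of 6 neutrophil markers were lower in the high range. S100a8, a calcium-binding protein of neutrophil cytosol (chr3:90668978-90670035, plus strand), had 44.9, 134 and 111 normalized reads in CON 1, 4 and 5 and 304, 144 and 220 in RSD 2, 7 and 8. In RSD 10 to 13 it had 34.3, 20.4, 0 and 1.1, and in CON 17 to 19 it had 0, 1.1 and 0. The ranges did not overlap, and the log2 difference was -5.56 ± 0.75, with -5.08 ± 1.37 in RSD samples, -6.10 ± 0.59 in CON samples and -5.72 ± 1.03 without CON 18 and RSD 8. At the dividing line RSD 8 had 220 and RSD 10 had 34.3, the highest value of the high range.

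Its partner S100a9 had 38.6 to 386 (median 217) against 0 to 43.6 (median 2.22), a difference of -5.12 ± 0.97, and the ranges overlapped through CON 1 and RSD 10. Ltf, lactoferrin, had 26.1 to 187 against 0 to 17.3 (-5.40 ± 0.68). Ngp, a granule protein, had 57.5 to 260 against 7.78 to 34.6 (-3.32 ± 0.35). The siderophore-binding Lcn2 had 13.9 to 47.9 against 0 to 5.20 (-4.31 ± 0.47), and Camp, cathelicidin, had 14.4 to 47.7 against 1.93 to 12.5 (-1.94 ± 0.38). Chil3, a chitinase-like protein of myeloid cells, had 18.0 to 64.4 against 0 to 2.04 (-4.85 ± 0.41). For Ltf, Ngp, Lcn2, Camp and Chil3 the ranges did not overlap. Without CON 18 and RSD 8 the differences were -5.70 ± 1.09 for S100a9, -5.60 ± 0.91 for Ltf, -3.33 ± 0.49 for Ngp, -4.23 ± 0.54 for Lcn2, -2.37 ± 0.35 for Camp and -5.08 ± 0.48 for Chil3.

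Of 20 neutrophil markers, 14 were in the table and 7 passed the filter, and 6 of those were lower past the threshold. The 6 passed the filter through the 6 low-range libraries, so their count follows in part from the filter. The remaining tested marker, Csf3r, is also expressed by microglia and had 6552 to 9076 against 6174 to 8649 (-0.01 on the log2 scale). The sum of the 13 markers other than Csf3r was 212 in CON 1 and 584 to 1287 in the other 5 low-range libraries, and 24.2 to 163 in the high range, with RSD 10 at 163 and RSD 11 at 134. The ranges did not overlap, and the medians of 827 and 41.1 were 20.1-fold apart. Of the members below the filter, Cd177 had 4.5 to 19.8 against 0 to 2.0, without overlap. Cxcr2 (3.2 to 23.2 against 2.8 to 22.5), Il1r2 (0 to 2.8 against 0 to 5.8), Retnlg (0 to 5.6 against 0 to 10.4), Mmp8, Mmp9 and Hp overlapped between the ranges. In such bulk samples, fewer neutrophils and less RNA per neutrophil cannot be told apart.

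**Figure D5:**
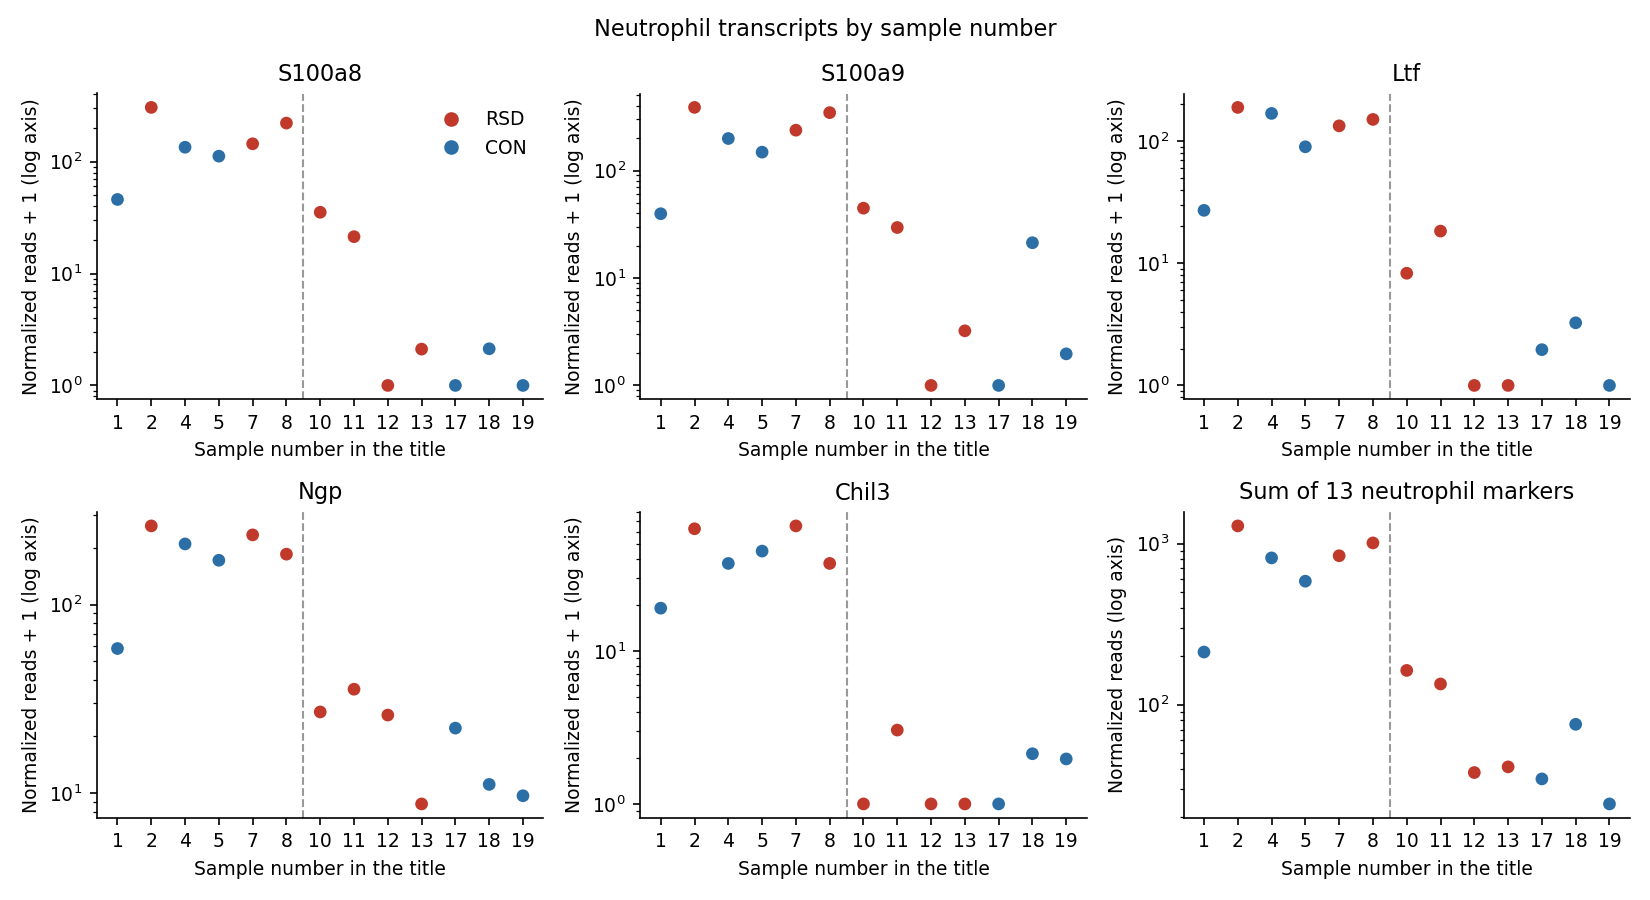
Normalized reads + 1 of 5 neutrophil and myeloid transcripts, and the summed normalized reads of 13 neutrophil markers, in each library in order of the sample number, on log axes; RSD is red, CON is blue and the dashed line divides the ranges. The sum lies between 212 and 1287 to the left of the line and between 24.2 and 163 to the right.

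Of the other cell type lists, only the astrocyte sum also divided by range. Summed border macrophage and monocyte markers were 5867 to 9385 in the low range and 8164 to 9391 in the high range apart from CON 18, at 41999. Of the 8 tested, 1 (Chil3) was lower past the threshold. Chil3 passed the filter through the low-range libraries, so its place in the count follows in part from the filter. Without CON 18 and RSD 8, 2 were lower, and the list median of 0.35 became -0.09. Astrocyte markers summed to 1475 to 1675 in the low range and 540 to 1451 in the high range, so every high-range library was below every low-range library. CON 18 was at 540, and the other 6 high-range libraries had 1290 to 1451. Endothelial and mural markers summed to 571 to 704 against 311 to 701, again with CON 18 lowest. Choroid plexus and ependyma markers summed to 230 to 1633 against 166 to 669. Oligodendrocyte (636 to 1015 against 862 to 949), neuron (86.0 to 170 against 91.8 to 130), lymphocyte (69.2 to 134 against 73.2 to 131) and erythrocyte markers (113 to 199 against 134 to 192) overlapped between the ranges. Apart from the border macrophage list, these lists had 0 members past the threshold in limma. Among neutrophil markers, 9 of 14 were at 0 in at least 1 high-range library and 5 in at least 1 low-range library, and no marker in the table, on any list, was at 0 in all libraries of a range. The part of any of these cells in the differences of other genes was not tested.

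Among lower genes on neither of these myeloid lists, Ildr2, an immunoglobulin-like domain receptor, had 242 to 393 normalized reads in the low range (median 282) and 74.4 to 159 in the high range (median 123). There was no overlap, and the log2 difference was -1.28 ± 0.13, with -1.19 ± 0.15 in RSD samples, -1.39 ± 0.21 in CON samples and -1.23 ± 0.10 without CON 18 and RSD 8. Pts, which makes a precursor of tetrahydrobiopterin, had 325 to 353 against 187 to 261 (-0.60 ± 0.09). Fam212b differed by -0.76 ± 0.13, Cdc42ep3, a Cdc42 effector, by -0.59 ± 0.11 and Dcbld2 by -0.52 ± 0.10. Gt(ROSA)26Sor, a noncoding transcript used as a transgene locus, was at -0.72 ± 0.14, and Atp5j, a subunit of ATP synthase, at -0.47 ± 0.10. Ildr2, Cdc42ep3, Gt(ROSA)26Sor, Atp5j and Dcbld2 each overlap a gene on the opposite strand.

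None of 24 homeostatic microglial genes passed the threshold in limma, and their median was -0.04 (0.18 in RSD and -0.26 in CON samples). P2ry12, the ADP receptor, differed by -0.27 ± 0.17, and by -0.02 ± 0.05 without CON 18 and RSD 8. Cx3cr1, the fractalkine receptor, was at 0.01 ± 0.10 and Tmem119 at 0.04 ± 0.17. Type I interferon-stimulated genes (25 tested) had a median of 0.03 that combined -0.32 in RSD samples with 0.34 in CON samples, and it was -0.11 without CON 18 and RSD 8. Antigen presentation genes (18) had a median of 0.18, or -0.01 without those libraries, and disease-associated microglial genes (19) had 0.05, or -0.01. These 3 lists had 0 members past the threshold in limma with all libraries. Without CON 18 and RSD 8, 1 disease-associated gene was higher past it. CON 18 stood apart in the summed levels of all 3. It had 14703 for interferon-stimulated genes (6789 to 9091 in the other libraries) and 36806.5 for antigen presentation (20318 to 24582). For disease-associated genes it had 233042 (73326 to 86298).

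Cytosolic ribosomal proteins (80 tested) had a median of -0.06 and 0 past the threshold, and 12 were lower without CON 18 and RSD 8. Nuclear-encoded oxidative phosphorylation (78) had a median of -0.07 with Atp5j the 1 lower gene. Mitochondrial ribosomal proteins (77, -0.05), proteasome subunits (47, -0.07), glycolysis (20, 0.14), cholesterol synthesis (17, -0.07), hypoxia response genes (12, -0.09) and cold-inducible RNA-binding proteins (4, -0.09) had 0. Without CON 18 and RSD 8 the median was 0.02 for hypoxia response genes and 0.03 for glycolysis.

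Whether the range difference itself depended on stress was tested with an interaction term. It is another contrast than the one that chose the ranges, but the same libraries were used, so the values of Hspa1a, Jun, S100a8 and the other heat shock genes are given as a description. No gene of 12496 passed (0%) in limma, with 0.150 as the smallest adjusted p, or in edgeR. Before adjustment, 2708 genes (21.7%) in limma and 2713 in edgeR had a p under 0.05. Hspa1a, Hspa1b, Hspa1l, Hsph1 and Dnaja1 were among them. Hspa1a differed by 1.40 ± 0.14 in RSD and by 3.57 ± 0.52 in CON samples, an interaction of -2.17 ± 0.56, and it was lowest in CON 1, 4 and 5. Hsph1 gave -1.94 ± 0.61 and Dnaja1, another HSP40, -1.33 ± 0.35. The interaction was 0.02 ± 0.66 for Hspb1, 0.02 ± 0.19 for Jun and 1.02 ± 1.59 for S100a8. With these errors, the values do not show for any of these genes that the groups are alike.

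The interaction count depended on single libraries. Without CON 18 and RSD 8, 154 genes had a positive and 309 a negative interaction past the threshold, of 12535 tested. These 463 of 12535 included 1 of the 86 genes, Hsp90ab1. Without RSD 7 there were 603 and 854 of 12455 tested, and without CON 1 there were 0 and 3 of 12571. The libraries also differed in how expression followed the GC content of transcripts, given as a Spearman correlation across genes. In the low range it was 0.33, 0.56 and 0.41 in CON 1, 4 and 5. The low-range RSD 2, 7 and 8 had -0.61, 0.09 and -0.80. In the high range it was 0.27 to 0.54 in RSD samples and -0.02 to 0.15 in CON samples. The GC trend thus divided by stress group within each range, in opposite directions. Its part in the unadjusted interaction values was not tested. With the GC trend removed, 0 genes passed for the interaction in limma, and 75 were higher and 30 lower between the ranges.

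With the number range in the fit, the stress term gave 0 of 12496 genes (0%) past the threshold in limma, with a smallest adjusted p of 0.701 and 733 genes at an unadjusted p under 0.05. edgeR also gave 0, with 777 unadjusted.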

How the data were processed

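RNA of 13 sorted microglia samples (7 RSD, 6 CON) was sequenced. Per the submitters' processing notes, STAR, DESeq2 and the mm10 build were used; their versions, the read counter and strand use are not stated. The authors' deposited table holds a signal per gene, a read count divided by a size factor: 100% of values were whole multiples of 1 step per library within 0.01 reads, so whole reads were recovered.

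The range term was fitted with limma 3.58.1 (R 4.3.3) on log2(value + 1) as stress plus range, with variance trend, robust estimation and Benjamini-Hochberg adjustment at 0.05. Genes were kept by edgeR's filterByExpr (4.0.16; minimum count 10, total 15). Alternatives included edgeR and DESeq2 (1.42.0) on recovered reads; the fit was tested on simulated data. At this depth a gene of few reads carries large counting error. Every pair of libraries differed by more than counting noise (lowest chi-square per degree of freedom 4.21).

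The ranges, gene lists and rules were chosen with earlier results of these data known. Named genes are the 4 markers, up to 12 past the threshold in each direction (mean of at least 50, ranges apart within RSD and within CON, same sign without CON 18 and RSD 8, no predicted genes) and up to 4 of smallest p per list. Camp, Cebpb, Csf3r, Cx3cr1, Egr1, Fosb, Hsp90aa1, Hspa2, Hspa5, Hspa8, Id2, Ier2, Il1b, Junb, Nfkb2, Odc1, P2ry12, Pard6a, Rgs1, Snord87, Tmem119, Tnf, Tsc22d3 and host genes fall outside that rule and were chosen after their values were seen. The neutrophil markers Cd177, Cxcr2, Il1r2, Retnlg, Mmp8, Mmp9 and Hp were below the filter and also fall outside that rule. Of the symbols, 13790 matched GENCODE M21, 559 a RefSeq synonym, and 169 nothing.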

Additional observations from a re-analysis of the deposited data

Results flagged for a closer look

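In 11 of 68 checks, each of 1 gene or marker sum within 1 range, 1 library lay outside Dixon's critical value. The checks share the same libraries and most of the genes were picked by range, so the 11 cannot be set against a chance rate. CON 18 did so most often among numbers 10 to 19: Hspb1 was 98.04 there against 393.2 to 609.1 in the other 6, Ccrl2 was 961.2 (232.7 to 496.8) and Pmaip1 was 397.8 (126.9 to 243.4). Its summed border macrophage and monocyte markers were 42000 against 8164 to 9391. Its neutrophil markers, mostly Csf3r, summed to 6250 (7805 to 8687), its astrocyte markers to 539.8 (1290 to 1451) and its endothelial and mural markers to 311.0 (599.6 to 700.9).

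Plk2 was 429.0 normalized reads in RSD 13 against 145.2 to 259.1 in the rest of the high range. Ltf was 17.31 in RSD 11, against 0 to 7.274. In the low range, Atp5j was 286.2 in RSD 8 against 193.1 to 222.0, and summed choroid plexus and ependyma markers were 1633 in CON 5 against 230.1 to 734.4.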

How the results depend on the processing

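Of the alternatives tried, these moved the 66 higher and 20 lower genes by over 1.5 times: DESeq2 on recovered reads (163 and 92), sample quality weights (182 and 126), omission of CON 18 and RSD 8 (139 and 107), the same with the GC trend removed, chosen after the data were seen (304 and 162), RSD samples alone (37 higher; 17 lower) and CON samples alone (1 and 0). Leaving out each library gave 24 to 108 higher and 8 to 64 lower: 24 and 9 without CON 19, 25 and 8 without RSD 7, 26 and 10 without RSD 13, 29 and 9 without CON 5, 34 and 14 without RSD 11, 37 and 9 without RSD 8, 39 and 9 without RSD 12, 40 and 10 without CON 4, 45 and 12 without CON 1, 51 and 13 without RSD 10, 61 and 12 without RSD 2, and 108 and 64 without CON 18. The interaction gave 0 to 603 positive and 0 to 854 negative genes, with 154 and 309 without CON 18 and RSD 8; the stress term stayed at 0. Without the causes being tested, 52 named genes past the threshold gave 1444 values under alternatives, of which 1073 stayed past it, 371 did not and 0 changed sign.

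A sign change was counted only for a list whose main median exceeded in size the pooled SD of its mean log2 level between libraries. By that rule 6 of 1120 list medians changed sign: the small heat shock list in RSD samples alone (-0.050), the oxidative stress list in RSD samples alone (-0.016), without CON 18 and RSD 8 (-0.0029) and also with the GC trend removed (-0.017), and, in that last setting, the proteasome (0.00065) and cholesterol (0.0021) lists. Smaller medians also changed sign without being counted. The DNAJ list, for example, went from -0.02 to 0.06 without CON 18 and RSD 8. As a mean of log2 over markers, the difference was -2.625 for neutrophil (-0.08 for the sum, and -4.30 for the sum without Csf3r), 0.54 for erythrocyte (-0.17) and -0.69 for astrocyte markers (-0.28). No paired analysis was possible because RSD and CON samples share no sample number.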
